A study of Mus musculus with 6 samples.

Results

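The Ly6 and urokinase receptor (uPAR) family was followed in squamous carcinoma cells that differed in Sox2. The 10 genes described, Ly6a, Ly6c1, Ly6d, Ly6e, Ly6g6c, Lypd2, Lypd3, Psca, Slurp1 and Plaur, were taken by name from the 55385 mouse gene rows of a bulk RNA-seq count table. All 10 were found, and all 10 passed the filter on low counts. The cells were PDVC57, an established mouse squamous carcinoma line of keratinocyte origin. There were 3 libraries with the genotype Sox2 KO (knockout) and 3 with the genotype Sox2 overexpression, and no group with unaltered Sox2. The design text speaks of carcinoma cells with low and high Sox2 that had been isolated out of tumours grown as grafts. How they were isolated, and so how far host cells were removed, is not given in the sources used here. The host strain, the number of tumours and whether each genotype is 1 clone are not given in the sources used here. P-values therefore measure the spread between these libraries, which may be technical.

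Proteins of this family carry a small cysteine-rich domain that folds into finger-like loops. Most are held on the outer face of the cell by a glycosylphosphatidylinositol (GPI) lipid anchor, and a few are secreted. In stratified epithelia several of them mark particular layers, and others are better known from blood cells, endothelium or the response to interferon. uPAR, the product of Plaur, is built from repeated domains of this kind and holds the protease urokinase at the cell surface.

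The libraries held 31247976 to 38543221 counts. Sox2 itself had 25 to 49 counts in the knockout libraries and 2566 to 4095 in the overexpression libraries, a log2 fold change of 6.58 (SE 0.33, edgeR quasi-likelihood test, adjusted p = 2.29e-06). All levels below are CPM, counts scaled to a common library size after TMM normalization, and all fold changes are overexpression over knockout. Of 35 epithelial genes 24 rose and 0 fell, where 13.6% of all tested genes rose and 18% fell. The summed level of the 35 was 7976 to 12477 CPM with knockout and 18926 to 24747 CPM with overexpression. All 10 fibroblast genes fell, from a summed 59023 to 85898 CPM to 265 to 425 CPM. In bulk RNA, fewer cells of a type and less RNA per cell cannot be told apart. A second scaling was therefore computed, in which each library was scaled to the 35 epithelial genes. Over all genes tested, it moved the median of the log2 fold changes from -0.016 to -1.06 and the share of higher genes among all genes past the threshold from 43.1% to 2.89%. Under it 392 of the 18504 tested genes rose and 13176 fell, so a fall there is the common outcome. Of the 35 epithelial genes themselves 2 rose and 3 fell. Its values are relative to that shift and are given beside each group of genes.

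Nearly the whole set was higher with Sox2 overexpression. Of the 10 genes, 9 rose, 0 fell, and Plaur did not pass the threshold (edgeR quasi-likelihood test, Benjamini-Hochberg adjusted p under 0.05 over 18504 tested genes). Among all tested genes 13.6% rose and 18% fell. The median log2 fold change of the 10 genes was 1.86, against -0.016 for all tested genes. For each of the 10 genes the lowest overexpression value exceeded the highest knockout value, and 50.9% of all tested genes had groups that did not overlap in either direction. With libraries scaled to the epithelial genes, 5 of the 10 genes rose and 1, Plaur, fell. Under that scaling 392 of the 18504 tested genes rose and 13176 fell. The 5 of the 10 that rose were Ly6g6c, Psca, Slurp1, Lypd2 and Ly6d.

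**Figure D1:**
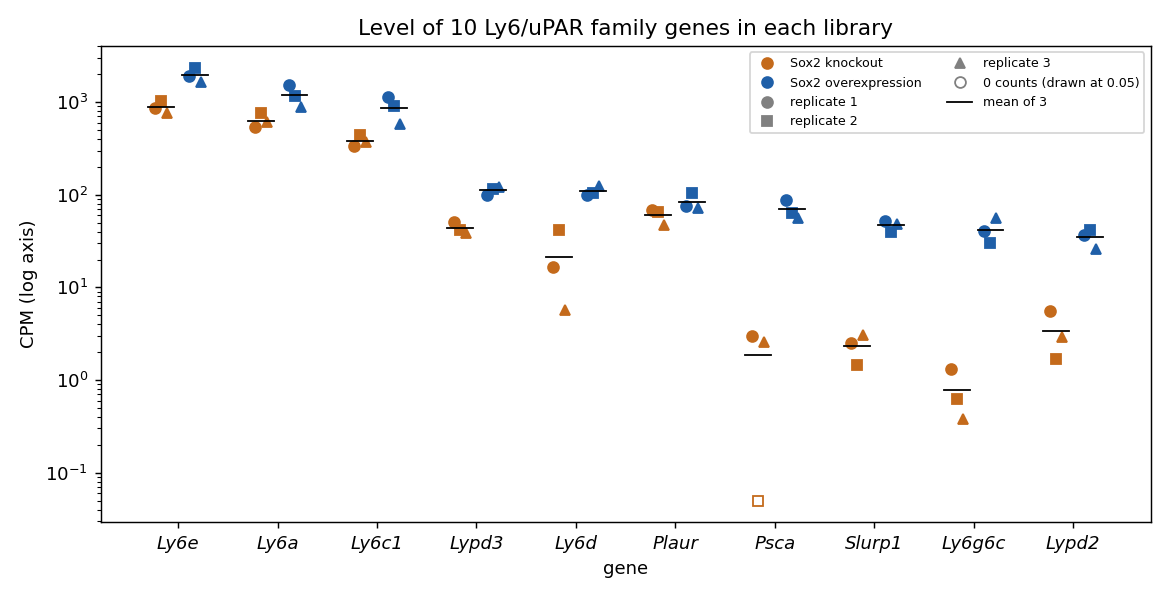
Level of each of the 10 genes (CPM, log axis) in each library, with knockout in orange, overexpression in blue, 1 symbol per replicate and a black line at the mean of 3. The groups do not overlap for any of the 10 genes, and the distance is widest for Ly6g6c, Psca and Slurp1. The open symbol is knockout replicate 2, with 0 counts of Psca.

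Promoter windows were available for 4 of the 10 genes and are shown because they let a reader set the start regions of 3 genes that rose beside that of Plaur, which did not pass the threshold. Each runs 5′ to 3′ from 250 bases before to 50 bases after a transcription start of RefSeq on GRCm38.p6. Capitals mark matches to 5 motifs searched on both strands: ACAATG, a core recognised by SOX factors; TGANTCA, the AP-1 site; AACCNGTT, a grainyhead site; TATAAA, the TATA box; and the interferon-stimulated response element. No match overlapped another.

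Ly6g6c, chr17:35067075-35067374, plus strand: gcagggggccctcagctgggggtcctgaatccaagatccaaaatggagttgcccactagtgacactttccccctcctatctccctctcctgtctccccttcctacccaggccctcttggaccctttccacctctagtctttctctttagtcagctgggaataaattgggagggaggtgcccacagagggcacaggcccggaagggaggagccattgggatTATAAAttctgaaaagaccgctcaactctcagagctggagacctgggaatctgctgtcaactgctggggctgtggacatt

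Ly6c1, chr15:75048788-75049087, minus strand: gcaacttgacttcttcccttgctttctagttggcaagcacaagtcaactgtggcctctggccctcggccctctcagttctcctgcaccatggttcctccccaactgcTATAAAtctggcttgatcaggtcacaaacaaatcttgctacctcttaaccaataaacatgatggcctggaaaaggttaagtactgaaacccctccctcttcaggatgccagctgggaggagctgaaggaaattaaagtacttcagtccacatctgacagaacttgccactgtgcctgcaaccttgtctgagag

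Lypd3, chr7:24636320-24636619, plus strand: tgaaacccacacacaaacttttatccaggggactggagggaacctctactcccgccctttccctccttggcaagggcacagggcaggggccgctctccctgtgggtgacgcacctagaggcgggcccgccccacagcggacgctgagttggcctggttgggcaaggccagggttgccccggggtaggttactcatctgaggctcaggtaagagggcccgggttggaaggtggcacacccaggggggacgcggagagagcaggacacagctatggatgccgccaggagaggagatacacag

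Plaur, chr7:24462233-24462532, plus strand: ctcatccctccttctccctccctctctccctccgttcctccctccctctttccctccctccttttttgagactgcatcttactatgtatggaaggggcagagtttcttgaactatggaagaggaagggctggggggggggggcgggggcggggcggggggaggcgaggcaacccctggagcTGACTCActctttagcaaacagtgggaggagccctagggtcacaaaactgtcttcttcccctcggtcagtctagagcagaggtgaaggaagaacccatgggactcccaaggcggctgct

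The Ly6g6c window held a TATA box 30 bases before its RefSeq start, and the Ly6c1 window one 143 bases before. The Ly6g6c window lies wholly inside the annotated gene, which begins at 35065388, so the RefSeq start is not the annotated gene start. Which start these cells used was not tested. TATAAA was found in 13.6% of 32851 promoter windows of the same length. The Plaur window held an AP-1 site 69 bases before its start, a motif found in 7.81% of all windows. The Lypd3 window held 0 matches to the 5 motifs. ACAATG, found in 12.6% of all windows, the grainyhead site, found in 2.09%, and the interferon element, found in 3.44%, had no match in these 4 windows. A match describes the letters only and was not tested for binding.

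Ly6g6c, Psca, Slurp1, Lypd2 and Ly6d showed the larger increases, between 5.09-fold and 54.1-fold. Their summed level was 14.8 to 45.7 CPM in the knockout libraries and 279 to 316 CPM in the overexpression libraries.

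Ly6g6c (ENSMUSG00000092586, chromosome 17, 35065388 to 35070050, GRCm38) encodes a family member in the class III region of the major histocompatibility complex. It had 1.32, 0.628 and 0.384 CPM in knockout replicates 1, 2 and 3, and 40.4, 30.1 and 55.9 CPM in overexpression replicates 1, 2 and 3. The 3 knockout libraries had 14 to 45 counts, and the 3 overexpression libraries had 889 to 2211. Ly6g6c rose with a log2 fold change of 5.76 (SE 0.45, edgeR adjusted p = 2.58e-05). It was 6.40 without knockout replicate 1, whose level was the highest of the knockout group.

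Psca (ENSMUSG00000022598, chromosome 15, 74714839 to 74717069) encodes prostate stem cell antigen, a GPI-anchored protein of several lining epithelia. Its levels were 2.96, 0 and 2.604 CPM with knockout and 88.1, 63.6 and 56.6 CPM with overexpression. Knockout replicate 2 had 0 counts, where a count of 0 allows up to 3 counts or 0.0992 CPM, while the other knockout libraries had 101 and 95 counts. Psca rose with a log2 fold change of 5.20 (SE 0.84, edgeR adjusted p = 0.00177). Without knockout replicate 2 the knockout mean rose from 1.85 to 2.78 CPM and the log2 fold change was 4.65 (adjusted p = 3.93e-05).

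Slurp1 (ENSMUSG00000022596, chromosome 15, 74724318 to 74728034) encodes a secreted member that acts on nicotinic acetylcholine receptors of keratinocytes, and its loss in people causes a thickening of the skin of palms and soles. It had 2.49, 1.46 and 3.07 CPM with knockout and 52.2, 39.5 and 48.2 CPM with overexpression. The coefficient of variation was 35.0% in the knockout libraries and 14.0% in the overexpression libraries. Slurp1 rose with a log2 fold change of 4.31 (SE 0.29, edgeR adjusted p = 1.03e-05). On the opposite strand, 322 bases of its exons overlap those of Them6, which rose too, by a log2 fold change of 1.81. The strand setting of the counting is not given in the sources used here, so reads of this stretch could have gone to either gene.

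Lypd2 (ENSMUSG00000022595, chromosome 15, 74732247 to 74734329) had 5.63, 1.69 and 2.93 CPM with knockout and 36.7, 42.1 and 26.1 CPM with overexpression. The lowest overexpression library stood well above the highest knockout library. Its log2 fold change was 3.35 (SE 0.41, edgeR adjusted p = 0.000389).

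Ly6d (ENSMUSG00000034634, chromosome 15, 74762056 to 74763620) encodes a keratinocyte surface antigen linked to cell adhesion. It had 16.4, 41.9 and 5.76 CPM with knockout and 98.4, 103.9 and 123 CPM with overexpression. The knockout libraries were spread over a wide range, with a coefficient of variation of 86.9%, and the overexpression libraries over a narrow one, with 11.9%. The log2 fold change was 2.35 (SE 0.58, edgeR adjusted p = 0.0146). Without knockout replicate 2, the highest of its group, the knockout mean fell from 21.4 to 11.1 CPM and the log2 fold change was 3.29.

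With libraries scaled to the epithelial genes, the log2 fold changes of these 5 genes were 4.77 for Ly6g6c, 4.15 for Psca, 3.24 for Slurp1, 2.33 for Lypd2 and 1.35 for Ly6d. Each kept an adjusted p under 0.05 there, the highest being 0.0326 for Ly6d. All 5 also passed in each fit that left out 1 library, with a highest adjusted p of 0.0477, for Ly6d without overexpression replicate 2. Genes of squamous differentiation, the cornified and suprabasal programme of stratified epithelium, were measured as a list. Of 24 tested genes 14 rose and 1 fell, where 13.6% of all tested genes rose and 18% fell. The median of the log2 fold changes of this list was 2.01. The 1 gene of the list that fell was Sbsn, with a log2 fold change of -1.16. Under the epithelial scaling 13 rose and 3 fell, where 392 of all 18504 tested genes rose and 13176 fell. The 3 of this list that fell were Sbsn, the suprabasal keratin gene Krt10 and Klf4, with log2 fold changes of -2.27, -2.36 and -0.86. The 3 with the smallest p-values were Sprr1a and Sprr2a1, which encode small proline-rich proteins of the cornified envelope, and Krt4, a keratin of lining epithelia. Sprr1a rose from 18.6 ± 4.51 to 407 ± 73.1 CPM (SD, n = 3 each). Sprr2a1 had a log2 fold change of 5.13, and Krt4 had 0 to 18 counts with knockout and 3280 to 4605 with overexpression.

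Lypd3, Ly6c1, Ly6e and Ly6a rose by smaller factors, between 1.88-fold and 2.57-fold. Ly6a, Ly6c1 and Ly6e together took up 92.2% to 94.6% of the summed CPM of the 10 genes in the knockout libraries and 86.1% to 90.3% in the overexpression libraries, shares that also depend on transcript length.

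Lypd3 (ENSMUSG00000057454, chromosome 7, 24636550 to 24641118) encodes C4.4A, a surface protein of suprabasal squamous epithelium. Its levels were 50.3, 41.9 and 38.2 CPM with knockout and 99.6, 115 and 121 CPM with overexpression. The spread within each group was small, with a coefficient of variation of 14.2% and 9.77%. Lypd3 rose with a log2 fold change of 1.36 (SE 0.16, edgeR adjusted p = 0.000297). On the other strand, 13.6% of its exon bases overlap those of the antisense gene Gm26550.

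Ly6e (ENSMUSG00000022587, chromosome 15, 74955051 to 74959905) encodes a widely expressed, interferon-inducible surface protein. It had 862, 1034 and 762 CPM with knockout and 1914, 2360 and 1648 CPM with overexpression. Overexpression replicate 2 and knockout replicate 2 were the highest of their groups. Ly6e rose with one of 1.16 (SE 0.21, edgeR adjusted p = 0.00317).

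Ly6a (ENSMUSG00000075602, chromosome 15, 74994877 to 74998031) encodes Sca-1, used as a marker of mouse stem and progenitor cells and also found on endothelium and fibroblasts. Its levels were 534, 757 and 608 CPM with knockout and 1522, 1176 and 878 CPM with overexpression. The closest libraries of the groups, knockout replicate 2 and overexpression replicate 3, were not far apart. The log2 fold change was 0.91 (SE 0.24, edgeR adjusted p = 0.0198). The adjusted p was 0.069 without knockout replicate 1 and 0.059 without knockout replicate 3, and the alternatives gave adjusted p-values from 0.00128 to 0.629.

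Ly6c1 (ENSMUSG00000079018, chromosome 15, 75044018 to 75048830) encodes an Ly6C antigen of endothelium and white blood cells. It had 339, 439.5 and 375 CPM with knockout and 1126, 902 and 588 CPM with overexpression. Overexpression replicate 1 was highest and replicate 3 lowest, as for Ly6a. Ly6c1 rose with a log2 fold change of 1.18 (SE 0.25, edgeR adjusted p = 0.00688).

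Ly6a and Ly6c1 are similar in sequence. Of the 31-base words in their annotated transcripts, 31.9% of those of Ly6a and 46.8% of those of Ly6c1 also occur in transcripts of other genes, mostly of each other, Ly6c2 and Ly6i. For the other 8 genes this share was at most 10.4%, and it was 0 for Ly6d, Lypd2 and Psca. Counts of Ly6a and Ly6c1 are therefore uncertain as to which of the similar genes they came from. When Ly6a, Ly6c1, Ly6c2, Ly6f, Ly6g and Ly6i were summed as 1 feature, the log2 fold change was 1.00 (SE 0.25, edgeR adjusted p = 0.0153). These genes were taken by symbol. The sum left out I830127L07Rik, which shares 55 of the words of Ly6a and 26 of those of Ly6c1. Its mean level was 1.65 CPM with knockout and 0.098 CPM with overexpression.

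With libraries scaled to the epithelial genes, the log2 fold change was 0.32 for Lypd3 (adjusted p = 0.0975), 0.12 for Ly6c1 (0.675), 0.10 for Ly6e (0.636) and -0.14 for Ly6a (0.629), so the sign turned for Ly6a and none of the 4 passed. The summed level of 26 interferon-stimulated genes was 2544 CPM in overexpression replicate 1, which also had the highest Ly6a and Ly6c1, and 1234 to 1505 CPM in the other 5 libraries. Of those 26 genes 6 rose and 0 fell, where 13.6% of all tested genes rose and 18% fell. Oas3 had the smallest p-value (log2 fold change 2.71). Under the epithelial scaling 1 of the 26 rose and 7 fell, where 392 of all 18504 tested genes rose and 13176 fell. Without overexpression replicate 1 the log2 fold change was 0.72 for Ly6a (adjusted p = 0.0438), 0.98 for Ly6c1 (0.0152) and 1.20 for Ly6e (0.00629). Endothelium also carries Ly6a and Ly6c1. Of 9 tested endothelial genes 8 fell and 0 rose, and the list summed to 40.1 to 135 CPM with knockout and 14.0 to 20.8 CPM with overexpression, led by Tek in both groups. Fibroblasts carry Ly6a as well, and the 10 fibroblast genes summed to 59023 to 85898 CPM with knockout and 265 to 425 CPM with overexpression. The part of interferon response, of endothelial cells or of fibroblasts in these results was not tested.

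**Figure D2:**
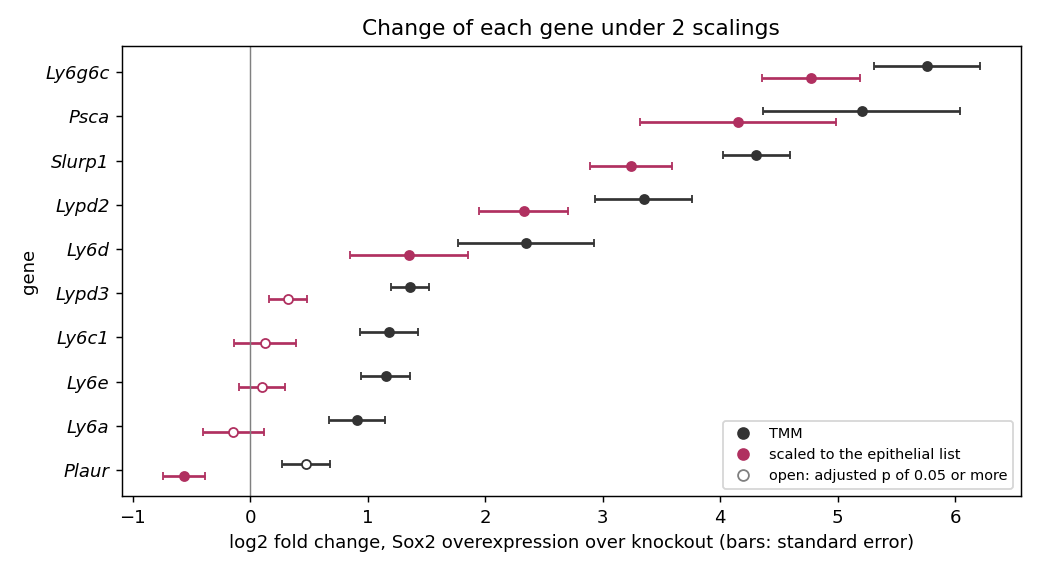
Log2 fold change of each of the 10 genes (points, with bars of 1 standard error) with TMM normalization in grey and with libraries scaled to 35 epithelial genes in red; open points have an adjusted p of 0.05 or more. Ly6g6c, Psca, Slurp1, Lypd2 and Ly6d stay above 0 and past the threshold under both, while Ly6a and Plaur lie above 0 with TMM and below 0 with the epithelial scaling.

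Plaur (ENSMUSG00000046223, chromosome 7, 24462484 to 24475968) was the exception among the 10. It had 68.4, 65.0 and 47.4 CPM with knockout and 75.2, 104.9 and 72.1 CPM with overexpression. The groups did not overlap, but overexpression replicate 3 and knockout replicate 1 differed by little. The log2 fold change was 0.48 (SE 0.20, edgeR adjusted p = 0.108), and it was -0.56 (adjusted p = 0.0173) under the epithelial scaling. The median of all tested genes under that scaling was -1.06.

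The other genes of the urokinase system moved in both directions. Urokinase turns plasminogen into plasmin on the cell surface, serpins inhibit it, and integrins and vitronectin bind the receptor. Of 19 tested genes of this system 5 rose and 11 fell, with a median of -1.21 for their log2 fold changes. Of all tested genes 13.6% rose and 18% fell. Under the epithelial scaling 0 rose and 14 fell, where 392 of all 18504 tested genes rose and 13176 fell. Plau, the gene of urokinase itself, had 282 ± 21.9 CPM with knockout and 219 ± 34.1 CPM with overexpression (SD, n = 3 each) and did not pass the threshold (edgeR adjusted p = 0.129). Under the epithelial scaling Plau fell, by 1.43 on the log2 scale (adjusted p = 0.000235).

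Among the genes that fell, those with the smallest p-values included Plat, the gene of tissue plasminogen activator, from 288 ± 49.6 to 86.2 ± 18.7 CPM (SD, n = 3 each). The inhibitor gene Serpine2 fell from 143 ± 78.5 to 3.01 ± 1.21 CPM (SD, n = 3 each). Mrc2, the gene of a collagen uptake receptor that associates with uPAR, fell from 275 ± 54.5 to 2.33 ± 0.243 CPM (SD, n = 3 each), and Lrp1, a receptor that clears urokinase with its inhibitor, fell by 2.37 on the log2 scale. The integrin gene Itga5 fell by 1.47 on the log2 scale. The matrix protease genes Mmp3 and Mmp9 had log2 fold changes of -9.68 and -5.09, or -4.45 for Mmp9 without knockout replicate 1. Vtn, the gene of vitronectin, had 76 to 119 counts with knockout and 0, 0 and 1 with overexpression, and was at least 30.8-fold lower against a floor of 3 counts per library. These falls went together with the 10 fibroblast genes given above, and their part in these values was not tested.

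The urokinase system genes that rose were Serpinb2, St14, Anxa2, S100a10 and Itga3, named after their values were seen. Serpinb2, a urokinase inhibitor gene, had a log2 fold change of 2.01 (SE 0.38, edgeR adjusted p = 0.00413) and St14, the gene of the epithelial protease matriptase, one of 1.63 (SE 0.25, edgeR adjusted p = 0.0012). Anxa2 and S100a10, whose products bind plasminogen as a complex, had log2 fold changes of 1.11 and 0.92. Itga3 had one of 0.69 (edgeR adjusted p = 0.0345), which did not pass without knockout replicate 1, 2 or 3 (0.0707, 0.104 and 0.103) or overexpression replicate 3 (0.0506). Its adjusted p-values under the alternatives lay between 0.00605 and 0.107. Under the epithelial scaling these 5 genes had log2 fold changes of 0.92, 0.56, 0.064, -0.14 and -0.37, below 0 for S100a10 and Itga3.

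**Figure D3:**
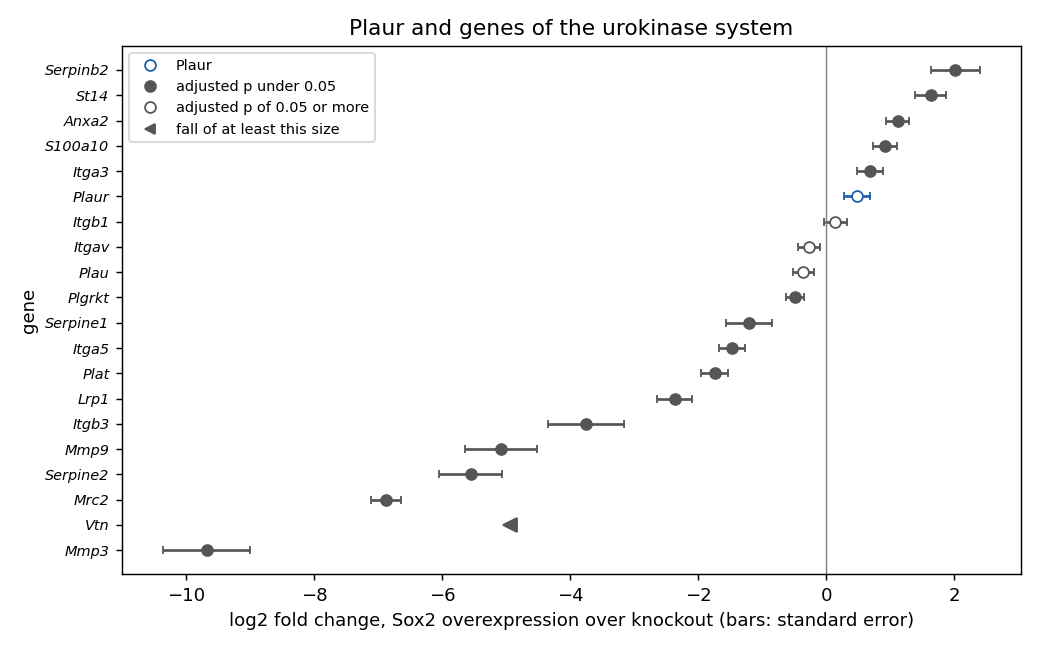
Log2 fold change (points, with bars of 1 standard error) of Plaur, in blue, and 19 tested genes of the urokinase system with TMM normalization; open points have an adjusted p of 0.05 or more, and the triangle for Vtn marks a fall of at least 30.8-fold. Plaur lies between 5 genes that rose and 11 that fell. S100a10, Itga3, Itgb1 and Plaur lie above 0 with TMM and below 0 under the epithelial scaling, and genes below 0 with TMM stay below 0.

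Levels of different genes were compared per kb of exon. With knockout the order from high to low was Ly6a, Ly6e, Ly6c1, Ly6d, Lypd3, Plaur, Lypd2, Psca, Slurp1 and Ly6g6c, from 526 ± 94.3 to 0.568 ± 0.355 CPM per kb (SD, n = 3 each). Neighbours in this order had overlapping libraries except at the steps from Ly6a to Ly6e, from Ly6c1 to Ly6d and from Plaur to Lypd2. With overexpression the order was Ly6a, Ly6e, Ly6c1, Ly6d, Psca, Lypd3, Lypd2, Plaur, Ly6g6c and Slurp1, from 989 ± 267 to 15.9 ± 2.22 CPM per kb (SD, n = 3 each). Psca moved from 2.16 ± 1.88 to 80.7 ± 19.2 CPM per kb (SD, n = 3 each), from under Plaur, at 23.04 ± 4.30, to over it, at 32.1 ± 6.92. The steps without overlap were those from Ly6a to Ly6e, from Ly6c1 to Ly6d, from Ly6d to Psca and from Ly6g6c to Slurp1. Ly6e came before Ly6a in both groups when coding length was used in place of all exon bases, and 4 of the 10 genes kept their rank in each group. With overexpression Slurp1 then came before Ly6g6c, at 115 against 82.3 CPM per kb of coding sequence, with overlapping libraries, so that step turned around.

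**Figure D4:**
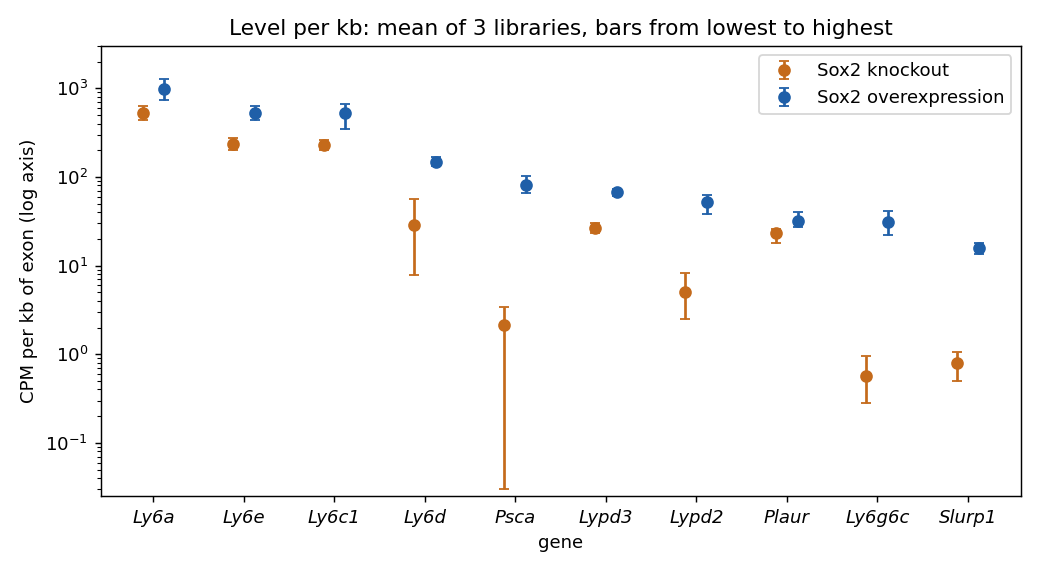
Level per kb of exon (log axis) of each gene, as the mean of 3 libraries with bars from the lowest to the highest library, ordered by the overexpression mean. Ly6a, Ly6e and Ly6c1 lie above the other 7 genes in both groups; the lower bar of Psca with knockout is cut off near the foot of the axis because 1 library had 0 counts.

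Of the 10 genes 7 lie in 1 cluster. Psca, Slurp1, Lypd2 and Ly6d follow each other on chromosome 15 with gaps of 7.25, 4.21 and 27.7 kb, and Ly6e, Ly6a and Ly6c1 follow 191 kb further on, with gaps of 34.97 and 45.99 kb. The stretch from Psca to Gpihbp1 spans 885 kb, and its genes were listed after the values of the 10 genes were seen. Of its 20 tested genes 12 are listed by name as family genes, and 8 of these rose and 1 fell. The 12 include the 7 genes already described, which all rose, so the count largely repeats that result. Outside the 10 genes, Lynx1 rose, Ly6c2 fell, and Ly6g, Ly6h and Ly6i did not pass. Among all tested genes 13.6% rose and 18% fell. Of the other 8 genes 4 rose, Them6, D730001G18Rik, Gm17189 and 2010109I03Rik, and 1 fell, I830127L07Rik. The median log2 fold change was 1.15 for the genes listed by name as family genes and 1.15 for the other genes of this stretch. This split follows names only. Among the others, I830127L07Rik shares 55 transcript words with Ly6a and 26 with Ly6c1, and BC025446 shares 2 and 6. Gm17189 overlaps 395 exon bases of the family gene Ly6k on the other strand. Whether neighbours unrelated to the family rose alike was therefore not tested by these medians. Under the epithelial scaling 4 of the family genes rose (Psca, Slurp1, Lypd2 and Ly6d) and 2 fell (Ly6c2 and Ly6h), while 2 of the others rose (Them6 and Gm17189) and 1 fell. Lynx1 and Ly6a then had log2 fold changes of -0.30 and -0.14, and Ly6i, Gm39556 and Gm28068 also turned below 0, none of these 5 past the threshold.

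**Figure D5:**
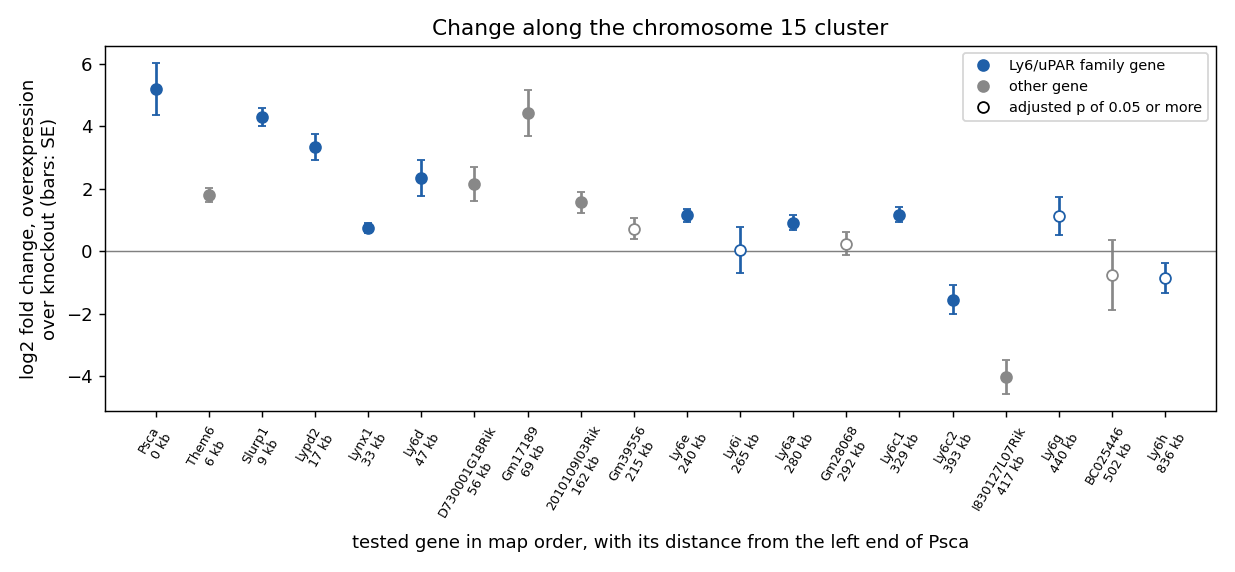
Log2 fold change (points, with bars of 1 standard error, TMM) of the 20 tested genes from Psca to Gpihbp1 in map order, each labelled with its distance in kb from Psca. Genes listed by name as family genes are blue, others grey, and open points have an adjusted p of 0.05 or more. The values at the Psca end reach 5.20 and those past Ly6c1 include 2 genes that fell, Ly6c2 and I830127L07Rik. Lynx1, Ly6a, Ly6i, Gm39556 and Gm28068 lie above 0 with TMM and below 0 under the epithelial scaling.

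On chromosome 17, Ly6g6c is followed by Ly6g6d and Ly6g6e, which share exon bases on opposite strands. Both were scarce and both rose. Ly6g6e had 6, 0 and 0 counts with knockout and 84, 70 and 86 with overexpression, a log2 fold change of 5.23 (SE 0.87, edgeR adjusted p = 0.00204). Without knockout replicate 1 its remaining knockout libraries had 0 counts, and without knockout replicate 3 the log2 fold change was 4.64. Ly6g6d had 15, 2 and 0 counts against 35, 65 and 37, and its adjusted p of 0.0381 was over 0.05 without knockout replicate 2 (0.118) or without overexpression replicate 1, 2 or 3 (0.0559, 0.149 and 0.0604) and was 0.0534 under the epithelial scaling. The alternatives gave adjusted p-values from 0.0013 to 0.149. Without knockout replicate 1 its log2 fold change went from 3.02 to 5.36, and without knockout replicate 3 to 2.42. A further family gene of this stretch, Ly6g5b, did not rise. Its log2 fold change was -0.92 (edgeR adjusted p = 0.119), or -1.97 under the epithelial scaling (0.00394). The neighbouring gene Abhd16a, which is no family member, had a log2 fold change of 0.060 (edgeR adjusted p = 0.801), or -1.01 under the epithelial scaling (0.00124).

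Family genes outside the 10 moved in both directions. Of 33 such genes with a row of counts, 12 passed the filter, several of them only through the group in which they were higher. The counts are therefore a description: 3 rose and 3 fell, or 1 and 5 under the epithelial scaling. Among all tested genes 13.6% rose and 18% fell. Under the epithelial scaling 2.89% of all genes past the threshold were higher, and 13176 of all 18504 tested genes fell. Lynx1, the gene of a nicotinic receptor modulator, rose from 49.6 ± 5.74 to 83.2 ± 6.27 CPM (SD, n = 3 each, edgeR adjusted p = 0.00515), with Ly6g6d and Ly6g6e the other two that rose. Cd59a, the gene of an inhibitor of the complement attack complex, had 233, 188 and 185 counts with knockout and 4, 6 and 7 with overexpression, a log2 fold change of -5.15 (SE 0.37, edgeR adjusted p = 1.43e-05). Ly6c2, a close relative of Ly6c1 found on monocytes, had 260, 354 and 1093 counts with knockout and 169 to 220 with overexpression. Its log2 fold change of -1.54 (edgeR adjusted p = 0.0347) was -0.76 (adjusted p = 0.0946) without knockout replicate 3, and its adjusted p was 0.0529, 0.111 and 0.103 without overexpression replicates 1, 2 and 3. Over its alternatives the adjusted p lay between 0.00034 and 0.111. Lypd1 had a log2 fold change of -1.79 (edgeR adjusted p = 0.029) that became -1.20 without knockout replicate 3, and 17.1% of its exon bases overlap those of Gpr39 on the other strand. Its adjusted p was over 0.05 when knockout replicate 2 or 3 (0.0527 and 0.0863) or overexpression replicate 2 or 3 (0.0991 and 0.0988) was left out. It was 0.0518 with a replicate block, and the alternatives spanned 0.00206 to 0.0991. The count of 6 such genes past the threshold was 3 without overexpression replicate 2.

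Markers of white blood cells, which also carry Ly6 proteins and uPAR, were mostly low. Of 10 neutrophil markers 4 were tested, 1 fell (Csf3r) and 1 rose, or 2 fell and 1 rose under the epithelial scaling, and S100a9, Retnlg and Ngp had 0 counts with overexpression. The one that rose was Ltf, the lactoferrin gene, also made by epithelia, at 41.2 ± 19.8 CPM with knockout and 1687 ± 1274 CPM with overexpression (SD, n = 3 each). The list summed to 34.7 to 68.1 CPM with knockout and 586 to 3087 CPM with overexpression, nearly all of it Ltf. Ly6g, the antigen that defines neutrophils, had 43 to 242 counts with overexpression and 64 to 87 with knockout (edgeR adjusted p = 0.184). Of 8 tested macrophage and monocyte markers 3 fell and 1, Cd14, rose (5 and 0 under the epithelial scaling), with sums of 31.6 to 53.0 and 25.8 to 66.5 CPM, and 0 of the 10 were at 0 in all overexpression libraries. Of 8 tested lymphocyte markers 6 fell, led by Nkg7 with knockout, with sums of 8.06 to 70.6 and 1.26 to 2.26 CPM. The part of these cells in the results was not tested.

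Genes that could serve the family were measured from fixed lists. Of 28 tested genes of GPI anchor synthesis and remodelling 7 rose and 0 fell, where 13.6% of all tested genes rose. Under the epithelial scaling 0 of the 28 rose and 18 fell, where 392 of all 18504 tested genes rose and 13176 fell. The anchor genes with the smallest p-values were Pgap2 and Mppe1, which remodel the anchor, and Gpld1, a phospholipase that cuts it. Their log2 fold changes were 1.27, 1.06 and 0.91, or 0.21, 0.0011 and -0.15 under the epithelial scaling. Exons of Mppe1 and Gpld1 overlap those of Gnal and Mrs2 on the other strand. Nicotinic receptor subunits, the targets of Slurp1 and Lynx1, were scarce. Of 13 subunit genes 3 were tested, and Chrnb2 had a log2 fold change of 0.98 (edgeR adjusted p = 0.0147), or -0.080 under the epithelial scaling; its exons overlap those of Adar on the other strand. Chrna7 had 0 counts in the overexpression libraries, against a mean of 0.159 CPM with knockout. Among the epithelial genes the smallest p-values were those of Rab25, Pkp3 and Dsg3, with log2 fold changes of 2.55, 1.17 and 2.62.

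The 10 genes did not vary alike within the groups. Ly6a and Ly6c1 followed each other, with a Pearson correlation of log2 CPM of 0.991 over the 6 libraries and 0.973 over deviations from the group means. Ly6d and Slurp1 had -0.891 over such deviations. Among 8665 other tested genes with an average log2 CPM of at least 4, those most like Ly6g6c over the 6 libraries were Krt6a, Mllt3 and Sox21 (r of 0.999, 0.998 and 0.997). Those most like Ly6a were Ly6c1, Ecm1 and Irf7 (0.991, 0.981 and 0.976), and those most like Plaur were Haus7, Nrbp1 and Mtch2 (0.992, 0.991 and 0.989). These correlations describe 6 libraries that share 1 contrast, and Ly6a and Ly6c1 share sequence.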

How the data were processed

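The authors deposited a table of counts, whole numbers that had not been normalized, with 1 row per gene ID and 1 column per library. The submitters' processing notes name kallisto 0.44.0 and the build mm10 with no role; kallisto gives estimated counts that divide reads between similar transcripts, and whether these counts came from it is not given in the sources used here. Libraries were made with a low-input kit, per the labels' protocols. Of 55481 rows, 96 name no mouse gene and were dropped, which removed no more than 2.23e-05% of the counts of any library. GENCODE M21 (GRCm38) gave symbols for 55144 gene IDs, positions and exon lengths.

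Genes were filtered (filterByExpr, minimum count 10, minimum total 15; 18504 kept), normalized with TMM and tested with edgeR 4.0.16 (glmQLFit, glmQLFTest; R 4.3.3) on all 6 libraries with the group as the only term. A standard error is the log2 fold change divided by the square root of F. On simulated counts for this comparison, with 18504 genes of which 200 changed, 114 were recovered, 77 of 106 of those changed 4-fold, with 5 false among 119 calls. In the data 5848 genes passed, so the simulation does not measure false calls or normalization error under so wide a change. The limit of 3 counts for a count of 0 covers counting error only. The similarity of Ly6a and other genes was measured as shared 31-base words of GENCODE transcripts. Alternatives were RLE and upper-quartile normalization, no filter, robust dispersion, a replicate block, DESeq2 1.42.0, each library left out, scaling to 35 epithelial genes, summed paralogs and coding length.

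The genes and lists were chosen with earlier results of these data known. Named were Sox2, the 10 genes, up to 8 genes past the threshold of the family and urokinase lists, 3 (interferon: 1) of the other lists, the highest markers of other cells, and the 3 genes most correlated with Ly6g6c, with Ly6a and, as none of the 10 fell, with Plaur; any other gene was named after its values were seen. No batch is in the labels.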

Additional observations from a re-analysis of the deposited data

How the results depend on the processing

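Of the 10 genes, 9 rose and 0 fell under RLE and upper-quartile normalization, without the filter, with robust dispersion, with the replicate block and with DESeq2. The count of genes that rose was 5 and of those that fell 1 when libraries were scaled to the epithelial genes; there the log2 fold change was -0.14 for Ly6a, -0.56 for Plaur, -0.30 for Lynx1, -0.14 for S100a10 and -0.37 for Itga3, in each case below 0, and 13568 genes in all were past the threshold against 5848. The cause was not tested. With 1 library left out, 8 to 9 of the 10 genes rose, 3 to 8 other family genes passed, and 13 to 16 urokinase system genes passed. The labels do not say what a replicate number shares, and same-numbered libraries of the groups had correlations of deviations of 0.0508, 0.0223 and -0.0399 for numbers 1, 2 and 3. With the replicate block 9 genes rose, 6 other family genes and 15 urokinase system genes (16 without it) passed, and 5593 genes passed in all. Among values of single genes under the alternatives, 390 kept their sign and side of the threshold, 36 kept their sign but no longer passed and 5 changed sign. Ly6g2 could not enter the paralog sum because no row carried that symbol, and I830127L07Rik was not put into it. Depth limits the knockout values of Ly6g6e and Ly6g6d, which rest on at most 15 counts in a library.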
